A study of Mus musculus with 10 samples.

Results

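The BAP1 deubiquitinase complex and its partners were followed at the RNA level through 10 mouse genes, Bap1, Asxl1, Asxl2, Hcfc1, Ogt, Foxk1, Foxk2, Kdm1b, Mbd5 and Mbd6. They were taken by symbol from a gene count table of 55291 genes, and all 10 were in the table and among the 17015 genes that passed the filter on low counts. The samples were 10 livers of female mice aged 16 to 20 weeks in 4 groups. All of these mice carried a Cas9 gene behind a Lox-Stop-Lox cassette, which keeps it silent until Cre recombinase removes the stop. All received 1e+12 particles of an AAV8 virus that holds a guide RNA under a U6 promoter and Cre under the TBG promoter, which is active in hepatocytes, so that controls also expressed Cas9 and Cre. The NTC mice had a non-targeting guide and the sgBap1 mice 1 guide against Bap1. After 10 days each mouse was given carbon tetrachloride (CCl4), a solvent that kills hepatocytes around the central veins, diluted 1:9 in olive oil and dosed at 10 µL per g of body weight, or the oil alone (Veh). RNA came from the right lobe of each liver 48 hours later, and there were 2 livers in each vehicle group (NTC-Veh and sgBap1-Veh) and 3 in each CCl4 group (NTC-CCl4 and sgBap1-CCl4). Cells other than hepatocytes were not targeted and their RNA is part of every sample.

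BAP1 removes ubiquitin from a lysine in the tail of histone H2A, the mark that Polycomb repressive complex 1 (PRC1) puts on chromatin of silent genes. It needs an ASXL protein, ASXL1 or ASXL2 in most tissues, to bind and cleave its substrate, and together they form the Polycomb repressive deubiquitinase, PR-DUB. HCF-1 (Hcfc1) is a scaffold for transcription factors and OGT is the enzyme that adds O-GlcNAc to proteins and also matures HCF-1. FOXK1 and FOXK2 are forkhead factors that bring the complex to DNA, KDM1B is a histone H3 lysine 4 demethylase, and MBD5 and MBD6 bind the ASXL subunits. BAP1 is a tumour suppressor that is lost in cancers of the bile duct and liver, among others.

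Expression is given in CPM, counts scaled to the size of the library, after correction by TMM, a factor that offsets a few very abundant genes. Log2 fold changes are given with standard errors (SE) and 95% intervals from edgeR's quasi-likelihood test, and p-values were adjusted by Benjamini-Hochberg over all 17015 genes of a comparison. A gene is called changed where this adjusted p is under 0.05. Libraries held 33047904 to 52199904 counts, and the 10 genes 207 to 6211 counts in a liver, against 3 counts taken as the floor. TMM factors were 0.786 to 0.851 in vehicle and 1.08 to 1.24 in CCl4 livers. The 6 hepatocyte markers summed to 63840 to 144200 CPM in each liver, as the labelled tissue would have. With vehicle the sum was 115400 to 144200 CPM for NTC and 102200 to 107700 for sgBap1 livers, and after CCl4 it was 69830 to 80170 and 63840 to 81870. In the liver sgBap1-CCl4 replicate 2 the fat cell genes Adipoq and Plin1 reached 36.4 and 34.5 CPM, against a maximum of 0.0425 and 0.0188 CPM among the other 9. These fat cell genes are named with their values known, and results that use this liver are also given without it.

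The genes lie on 8 chromosomes of GRCm38 (GENCODE vM21). Bap1 (ENSMUSG00000021901.10) spans chr14:31251450-31259944 on the + strand, and 132 bases separate its start from that of Phf7, which is read in the other direction. Asxl1 is at chr2:153345829-153404007 (+), Asxl2 at chr12:3426857-3506852 (+), Hcfc1 at chrX:73942792-73966357 (-) and Ogt at chrX:101640060-101684351 (+). Foxk1 is at chr5:142401497-142462011 (+), Foxk2 at chr11:121259990-121309896 (+) and Kdm1b at chr13:47043499-47085279 (+). Mbd5 is at chr2:48949508-49325405 (+) and Mbd6 at chr10:127281956-127289018 (-). Of Kdm1b's 5495 exon bases, 505 overlap exons of Tpmt and Dek on the opposite strand, and 197 of Asxl1, 155 of Asxl2 and 136 of Mbd5 also overlap exons of other genes. The kit marks strand, but the strand setting of the counting is not given in the sources used here. At most 0.51% of the stretches of 50 bases in any member's transcripts recur in another gene, so the paralogs Asxl1 and Asxl2, Foxk1 and Foxk2, and Mbd5 and Mbd6 can be told apart by their reads.

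Promoter sequence is shown for the gene that was edited and for 3 members that changed with CCl4, since these carry the results. Each stretch ends at the last base before the RefSeq gene start (GRCm38.p6, + strand) and is written 5′ to 3′, without exons of coding genes. The stretches are chr14:31251318-31251351 for Bap1, chr2:153345729-153345828 for Asxl1, chrX:101639911-101640010 for Ogt and chr13:47043344-47043372 for Kdm1b. Capitals mark the GC boxes (GGGCGGG on the opposite strand) of Bap1. In Asxl1 they mark ACTACAA, which is part of the element that the factors THAP11 and ZNF143 bind.
Bap1: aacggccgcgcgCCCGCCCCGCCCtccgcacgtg
Asxl1: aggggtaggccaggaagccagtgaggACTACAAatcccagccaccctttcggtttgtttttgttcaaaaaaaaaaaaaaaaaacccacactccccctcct
Ogt: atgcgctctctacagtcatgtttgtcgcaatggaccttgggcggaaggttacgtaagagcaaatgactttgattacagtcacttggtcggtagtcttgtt
Kdm1b: tcccaggaccctgtgaccccacccaggcc
The Bap1 stretch begins at the first base after Phf7 and fills the 34 bases up to the RefSeq start. This start lies closer to Phf7 than the GENCODE start used for the positions above. The stretch is 85.3% G and C, with 2 overlapping GC boxes. The Ogt stretch is 46% G and C and holds none of the 5 motifs searched. Whole RefSeq windows around gene starts were at hand for 9 of the 10 members and not for Foxk1, 12 windows in all. A GC box on either strand was in 8 of these 12 windows, from 7 members, against 25.6% of all 32851 mouse windows. ACTACAA was in 1 of the 12, from Asxl1, against 3.24% of all windows. AAGATGG, the core of the YY1 motif, was in 2 of the 12, from Asxl1 and Hcfc1 (6.34% of all windows). CCGGAAG, an ETS motif, was in 4 of the 12, from Asxl1, Asxl2, Hcfc1 and Mbd5 (8.86%). The forkhead motif GTAAACA was in none of the members' windows and in 3.65% of all. A match is a run of letters and not a measured site.

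Bap1 RNA was lower in all 5 sgBap1 livers than in all 5 NTC livers, with and without CCl4, and it was the only one of the 10 genes called between genotypes. With vehicle it measured 34.8 and 34.8 CPM in NTC and 17.6 and 19.5 CPM in sgBap1 livers. After CCl4 it measured 30.1, 31.5 and 29.5 CPM in NTC livers and 16.99, 21.8 and 19.1 CPM in sgBap1 livers. The highest sgBap1 value, 21.8 CPM, was that of the liver with fat cell genes. With vehicle the level was 53.2% of that in NTC livers (95% interval 44.3% to 63.9%), or -0.91 on the log2 scale (SE 0.12, adjusted p = 0.0208). With CCl4 it was 63.6% (54.9% to 73.7%), or -0.65 on the log2 scale (SE 0.10, adjusted p = 0.0295), and -0.75 (adjusted p = 0.0287) without that liver. Averaged over both treatments it was 58.1% (51.7% to 65.4%), or -0.78 on the log2 scale (SE 0.08, adjusted p = 0.00612), which placed Bap1 3rd by p among the 17015 genes.

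**Figure D1:**
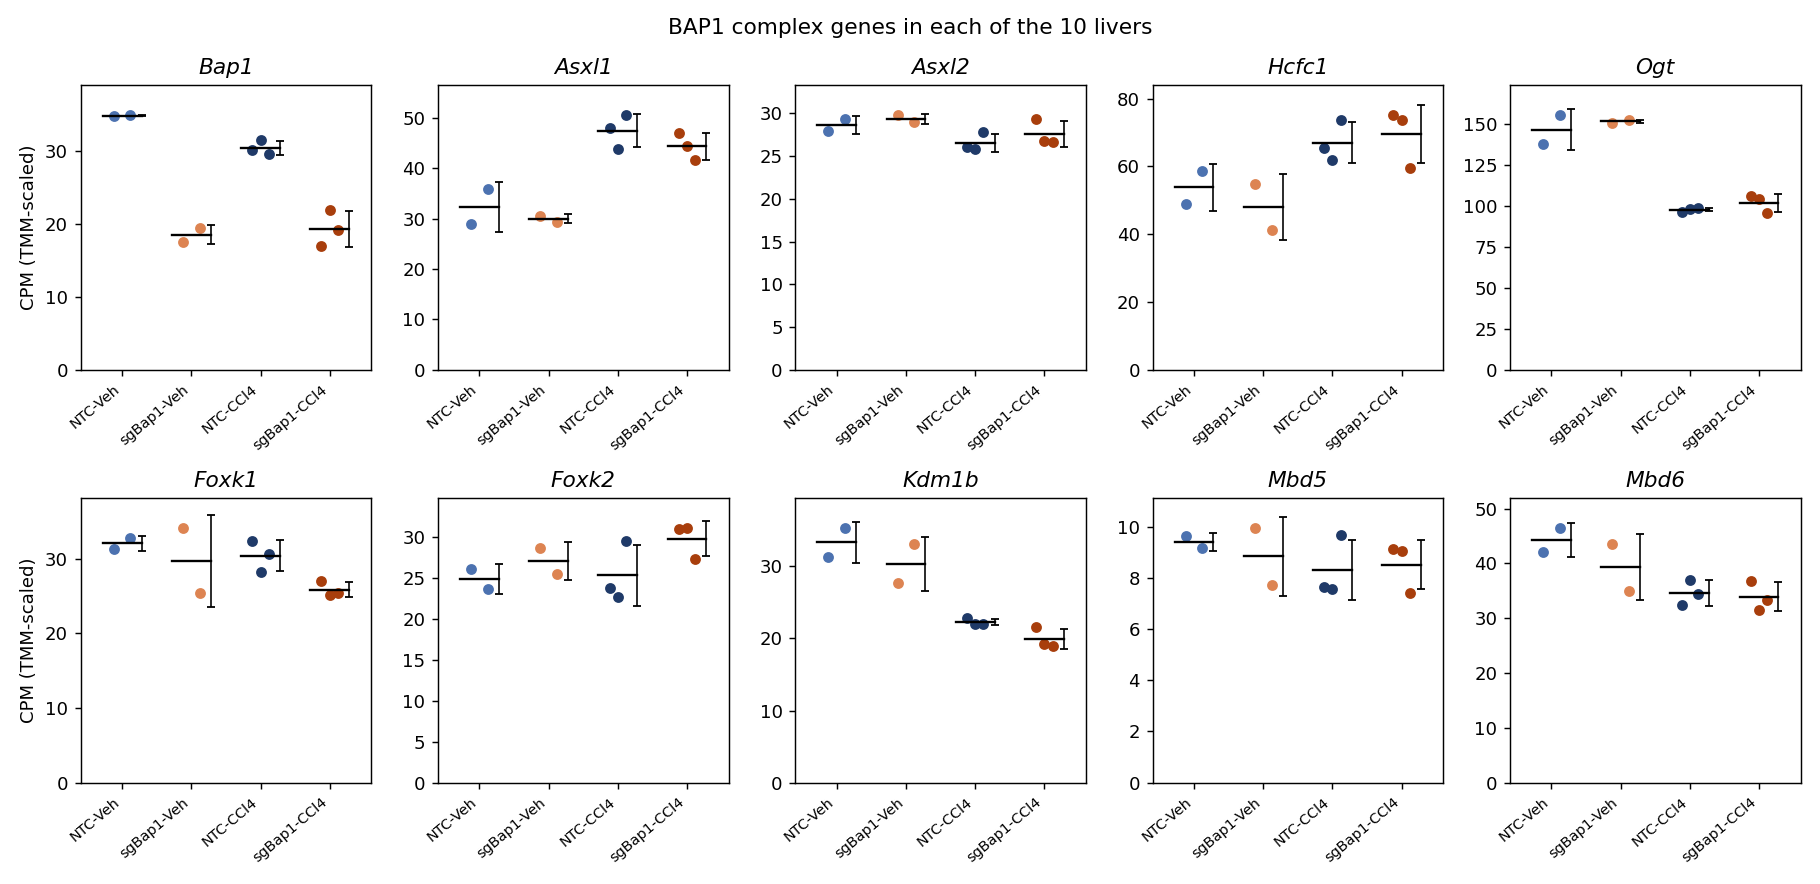
TMM-scaled CPM (vertical axes, from 0, a different range for each gene) of the 10 genes in each liver (points) by group, with group means (horizontal lines) and SDs (bars). Bap1 sits between 29.5 and 34.8 CPM in the 5 NTC livers and between 16.99 and 21.8 CPM in the 5 sgBap1 livers, and Asxl1, Ogt and Kdm1b separate by treatment.

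In bulk RNA of a liver lobe the Bap1 RNA of other cells, of hepatocytes without a guide and of edited alleles cannot be told apart, nor can fewer cells of a type and less RNA per cell. Summed levels of some, but not all, listed cell markers also stood apart between genotypes with vehicle. The sum of the 6 hepatocyte markers was lower in both sgBap1 livers, at the values given above. Macrophage markers summed to 105 to 169 CPM in NTC and 215 to 315 CPM in sgBap1 livers, T and NK cell markers to 1.77 to 4.27 and 6.85 to 7.51, B cell markers to 3.46 to 7.43 and 8.38 to 9.88, and proliferation markers to 4.57 to 4.96 and 7.07 to 9.53, none of them overlapping. The sums of neutrophil, sinusoidal endothelium, stellate cell, cholangiocyte, fat cell and red blood cell markers overlapped between genotypes with vehicle. Of all tested genes, 40.9% did not overlap in this comparison. After CCl4 the genotypes overlapped for each of these sums. No single marker was called between genotypes, and the part of these cells in the Bap1 result was not tested. The averaged call stood in all 10 fits that left out 1 liver, with adjusted p of 0.00396 to 0.0482. Within vehicle the call was lost without any 1 of the 4 vehicle livers (adjusted p of 0.0577 without NTC-Veh replicate 1, 0.104 without NTC-Veh replicate 2, 0.12 without sgBap1-Veh replicate 1 and 0.0624 without sgBap1-Veh replicate 2), and the log2 fold change stayed between -0.99 and -0.84. Within CCl4 it was lost in 6 of 10 such fits, namely without either NTC-Veh liver, any of the 3 NTC-CCl4 livers or sgBap1-CCl4 replicate 1, with adjusted p up to 0.147 and log2 fold changes from -0.75 to -0.57.

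Between genotypes Bap1 was lower in sgBap1 livers by 0.91 with vehicle and by 0.65 with CCl4 on the log2 scale. The difference between the 2 changes was 0.26 (95% interval -0.08 to 0.59, adjusted p = 0.616). The data thus do not show that the genotype change differed between treatments. From vehicle to CCl4, Bap1 changed by -0.20 in NTC (adjusted p = 0.144) and by 0.06 in sgBap1 livers (adjusted p = 0.648), neither called. None of the 10 members had an interaction of genotype and treatment, their smallest adjusted p being 0.616, and by edgeR's test 0% of all genes had one, with 1764 genes at an unadjusted p under 0.05. DESeq2's Wald test called 408 genes for the interaction and again 0 of the 10 members.

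Phf7, whose start faces that of Bap1 across 132 bases in GENCODE vM21, was chosen with its values known. It measured 7.43 and 8.76 CPM in the vehicle livers of NTC mice against 5.87 and 7.04 in those of sgBap1 mice. After CCl4 the values were 5.10, 5.62 and 5.28 against 3.98, 4.26 and 5.29. Its averaged log2 fold change between genotypes was -0.29 (SE 0.11, adjusted p = 0.258), which did not pass the test. It fell with CCl4 by 0.60 in NTC (adjusted p = 0.00838) and by 0.51 in sgBap1 livers (adjusted p = 0.0196). The first call was lost without NTC-Veh replicate 2 (adjusted p = 0.0851), and the second without sgBap1-Veh replicate 2 or sgBap1-CCl4 replicate 1 (adjusted p up to 0.151). With library size alone the values were -0.13 and -0.04, neither called.

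Of the 10 members, 1 was called between genotypes with vehicle, where 0.406% of all genes were called, 1 with CCl4 (0.329% of all genes) and 1 in the average (0.411%), and each time this was Bap1. Livers of the 2 genotypes did not overlap for 1 member with vehicle, against 40.9% of all genes, and for 3 with CCl4 (Bap1, Foxk1 and Kdm1b), against 20.3% of all genes. In the average, log2 fold changes of the other 9 members ran from -0.17 to 0.18 with a median of -0.05, beside 0.02 for all genes, and their smallest adjusted p was 0.358. Among 4557 genes with a mean level within 2-fold of the members, the smallest averaged change that was called was 0.36 on the log2 scale. The averaged 95% intervals of the members other than Bap1 together reached from 78.0% to 130% of the NTC level. These were the lower bound of Foxk1 and the upper bound of Foxk2. Some genes had narrower ones, such as Asxl2 (94.4% to 113%). Within 1 treatment intervals were wider, as for Hcfc1 with vehicle (69.4% to 115%). For each gene, changes within its own interval cannot be told from none with 10 livers.

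**Figure D2:**
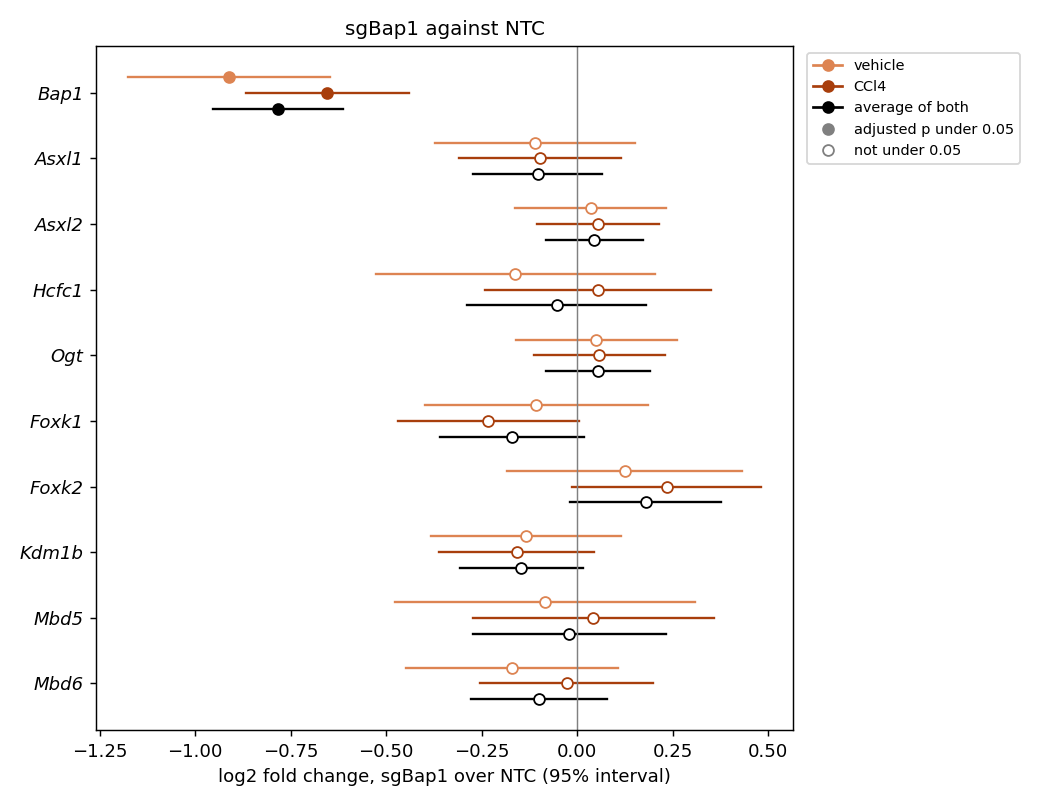
Log2 fold change of sgBap1 over NTC livers (horizontal axis) for the 10 genes with vehicle, with CCl4 and averaged, as points with 95% intervals. Filled points have an adjusted p under 0.05; these are the 3 points of Bap1, at -0.91, -0.65 and -0.78, and the intervals of all other genes include 0.

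The ASXL subunits, which activate BAP1, were not called between genotypes, and Asxl1 rose with CCl4. Asxl1 measured 28.8 and 35.9 CPM (NTC) against 30.6 and 29.3 (sgBap1) with vehicle, and 47.9, 43.9 and 50.4 against 46.9, 44.3 and 41.6 after CCl4. Every CCl4 liver was above every vehicle liver, and the genotypes overlapped under both treatments. Asxl1 rose with CCl4 by 0.55 on the log2 scale in NTC livers (SE 0.11, adjusted p = 0.00165) and by 0.56 in sgBap1 livers (SE 0.11, adjusted p = 0.00137), while its averaged difference between genotypes was -0.10 (95% interval -0.27 to 0.06). Asxl2 was the steadiest of the 10, with 27.9 and 29.4 CPM in the vehicle livers of NTC mice against 29.8 and 29.0 in those of sgBap1 mice, and 26.1, 25.8 and 27.8 against 29.3, 26.8 and 26.6 after CCl4. The highest of these values is 1.15 times the lowest, against 2.05 times for Bap1. Its changes with CCl4 were -0.11 and -0.09 in NTC and sgBap1 livers (adjusted p = 0.278 and 0.364), and with the guide 0.04 in the average (95% interval -0.08 to 0.17).

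The scaffold Hcfc1 measured 49.0 and 58.7 CPM (NTC) against 54.9 and 41.2 (sgBap1) with vehicle, and 65.3, 61.9 and 73.6 against 75.0, 73.8 and 59.6 after CCl4. All 6 CCl4 livers were above all 4 vehicle livers. The rise passed the test in sgBap1 livers (0.53, SE 0.15, adjusted p = 0.0127) but not without sgBap1-Veh replicate 2, its lowest liver (0.34, adjusted p = 0.136). In NTC livers the log2 fold change was 0.31 (95% interval -0.02 to 0.65, adjusted p = 0.103), and the difference between the 2 was 0.22 (adjusted p = 0.799). Ogt was the most abundant of the 10 and fell with CCl4. It measured 138 and 155 CPM in the vehicle livers of NTC mice against 151 and 152 in those of sgBap1 mice, and 96.6, 98.1 and 98.7 against 106, 104 and 95.7 after CCl4. The highest CCl4 liver was thus well below the lowest vehicle liver. The log2 fold change was -0.58 in NTC (SE 0.09, adjusted p = 0.00025) and -0.57 in sgBap1 livers (SE 0.09, adjusted p = 0.000257), and with the guide it was 0.05 (95% interval -0.08 to 0.19).

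The averaged log2 fold changes of the forkhead partners between genotypes had opposite signs, and neither gene was called. Foxk1 measured 31.4 and 32.8 CPM (NTC) against 34.1 and 25.4 (sgBap1) with vehicle, and 32.4, 28.3 and 30.6 against 27.1, 25.2 and 25.4 after CCl4. The sgBap1-CCl4 livers were all below the NTC-CCl4 livers, and the vehicle groups overlapped. Foxk2 measured 26.1 and 23.6 CPM in the vehicle livers of NTC mice against 28.6 and 25.4 in those of sgBap1 mice, and 23.8, 22.6 and 29.5 against 30.9, 31.0 and 27.3 after CCl4, and the genotypes overlapped under both treatments. The averaged log2 fold change with the guide was -0.17 for Foxk1 (SE 0.09, adjusted p = 0.361) and 0.18 for Foxk2 (SE 0.09, adjusted p = 0.358). With CCl4 neither was called, at -0.08 and -0.20 for Foxk1 and 0.03 and 0.14 for Foxk2 in NTC and sgBap1 livers.

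The demethylase Kdm1b fell with CCl4 about as far as Ogt. It measured 31.3 and 35.3 CPM (NTC) against 27.8 and 33.1 (sgBap1) with vehicle, and 22.8, 22.0 and 22.0 against 21.6, 19.2 and 19.0 after CCl4. No CCl4 liver reached the lowest vehicle liver, and the 3 sgBap1-CCl4 livers were below the 3 NTC-CCl4 livers. The log2 fold change with CCl4 was -0.58 in NTC (SE 0.10, adjusted p = 0.000754) and -0.61 in sgBap1 livers (SE 0.10, adjusted p = 0.000549), and the averaged change with the guide was -0.15 (95% interval -0.31 to 0.01, adjusted p = 0.358). Part of its exons overlap Tpmt and Dek, as given above.

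Of the MBD proteins that join the ASXL subunits, Mbd6 had the higher CPM in each liver. Mbd6 measured 42.1 and 46.4 CPM in the vehicle livers of NTC mice against 43.6 and 35.0 in those of sgBap1 mice, and 32.4, 37.0 and 34.4 against 36.9, 31.6 and 33.4 after CCl4. It was lower after CCl4 in NTC livers (-0.36, SE 0.11, adjusted p = 0.0216), with no overlap, but this call was lost without NTC-Veh replicate 2 (adjusted p = 0.158), NTC-CCl4 replicate 1 (adjusted p = 0.0716) or NTC-CCl4 replicate 3 (adjusted p = 0.0536). In sgBap1 livers the value was -0.21 (adjusted p = 0.131), and the difference between the 2 was 0.14 (adjusted p = 0.833). Mbd5 had the fewest counts, with 9.67 and 9.17 CPM (NTC) against 9.96 and 7.75 (sgBap1) with vehicle, and 7.68, 7.59 and 9.68 against 9.13, 9.06 and 7.42 after CCl4. Its groups overlapped in each of the 4 comparisons, and its log2 fold changes ran from -0.18 to 0.04 with 95% intervals that together reached from -0.54 to 0.36.

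With CCl4, 4 of 10 members were called in NTC livers, 1 higher (Asxl1) and 3 lower (Ogt, Kdm1b and Mbd6), where 53.9% of all genes were called, 27.4% higher and 26.6% lower. In sgBap1 livers 4 of 10 were called, 2 higher (Asxl1 and Hcfc1) and 2 lower (Ogt and Kdm1b), where 57% of all genes were called, 29% higher and 28% lower. Groups did not overlap for 7 of 10 members in NTC (71.7% of all genes) and for 4 of 10 in sgBap1 livers (72.2%). The members were thus called no more often than genes at large, and the median size of their change, 0.26 and 0.21 on the log2 scale, lay below the 0.57 and 0.60 of all genes. The same 4 were called in sgBap1 livers when the liver with fat cell genes was left out. The 2 CCl4 comparisons share no liver with each other, but each shares livers with the genotype comparisons.

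**Figure D3:**
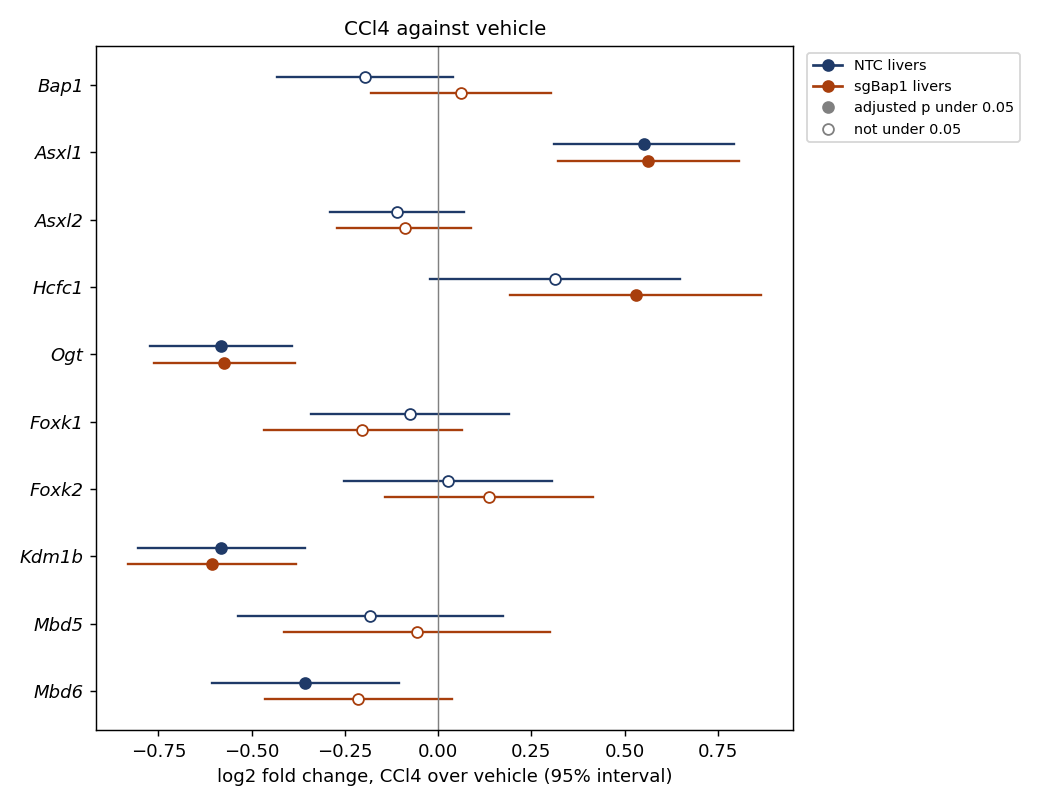
Log2 fold change of CCl4 over vehicle livers (horizontal axis) for the 10 genes in NTC and in sgBap1 livers, as points with 95% intervals, filled where the adjusted p is under 0.05. Asxl1 is at 0.55 and 0.56, Ogt at -0.58 and -0.57 and Kdm1b at -0.58 and -0.61 under TMM. Scaling by library size alone is not drawn. With it all 10 genes were at higher values, and the falls of Ogt and Kdm1b were not called.

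These CCl4 changes are relative to the bulk of genes. Scaled by library size alone, the median gene was 0.50 higher with CCl4 in NTC and 0.52 higher in sgBap1 livers on the log2 scale, against 0.03 and 0.04 with TMM, and 80.5% and 78.3% of the called genes were higher, against 50.8% and 50.9%. On that scale Ogt was at -0.11 and -0.09 and Kdm1b at -0.11 and -0.12 in NTC and sgBap1 livers, none of them called, Mbd6 turned to 0.12 in NTC livers, and Asxl1 was at 1.02 and 1.05. Relative to the median gene of each scaling, Ogt was at -0.61 under both scalings in NTC livers and Asxl1 at 0.52. Over the same comparison the cell makeup moved as well. The sums of hepatocyte markers in CCl4 livers were all below those in vehicle livers, 4 of 6 being called lower in NTC and 2 of 6 in sgBap1 livers, the 3 proliferation markers summed to 131 to 257 CPM against 4.57 to 9.53, and macrophage markers to 340 to 653 against 105 to 315. Single macrophage markers differed. Of 6, 3 were called higher in NTC livers, and 2 were called higher and 2 lower in sgBap1 livers, where Marco had a mean of 27.8 CPM with vehicle and 189 after CCl4, and Clec4f 143 and 58.5. Their part in the changes of the members was not tested.

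Ratios of genes within a liver do not depend on scaling, and 5 were tested for each factor by exact permutation of the labels within the other factor (two-sided, 10 tests, Benjamini-Hochberg adjusted over these). The Foxk2 to Foxk1 ratio was higher in sgBap1 livers under both treatments. It was 0.832 and 0.719 in the vehicle livers of NTC mice against 0.839 and 1.00 in those of sgBap1 mice, and 0.732, 0.800 and 0.964 against 1.14, 1.23 and 1.07 after CCl4. The groups did not overlap under either treatment, although with vehicle the nearest livers were almost equal. The mean difference was 0.36 on the log2 scale (exact p = 0.0167, adjusted p = 0.0333), and 0.0167 is the smallest p that these 10 livers can give between genotypes. Without the liver with fat cell genes it was 0.33 (adjusted p = 0.0833 by the same exact test), and the call was likewise lost without either other sgBap1-CCl4 liver or any 1 vehicle liver.

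The Asxl2 to Asxl1 ratio turned towards Asxl1 with CCl4. It was 0.969 and 0.820 (NTC) against 0.974 and 0.987 (sgBap1) with vehicle, and 0.546, 0.588 and 0.551 against 0.625, 0.605 and 0.640 after CCl4. The CCl4 livers were all lower, by a mean of 0.66 on the log2 scale (exact p = 0.01, adjusted p = 0.0333, the smallest p possible for this factor being 0.01). With the guide the ratio was slightly higher under both treatments, by 0.14 (exact p = 0.0167, adjusted p = 0.0333), a difference smaller than the gap between the 2 NTC-Veh livers, and it was 0.08 (adjusted p = 0.0833) without NTC-Veh replicate 2. This call was also lost without any other vehicle liver, sgBap1-CCl4 replicate 1 or sgBap1-CCl4 replicate 3, with adjusted p up to 0.194. The Ogt to Oga ratio sets the enzyme that adds O-GlcNAc against the one that removes it. It was 1.79 and 1.83 in the vehicle livers of NTC mice against 1.94 and 2.14 in those of sgBap1 mice, and 1.29, 1.4 and 1.43 against 1.31, 1.32 and 1.17 after CCl4. It was lower in all CCl4 livers by 0.55 on the log2 scale (exact p = 0.01, adjusted p = 0.0333) and differed by 0.03 between genotypes (exact p = 0.7).

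Bap1 RNA relative to the sum of Asxl1 and Asxl2, its obligate partners, had its lowest mean, 0.270, in sgBap1-CCl4 livers. The ratio was 0.613 and 0.533 (NTC) against 0.291 and 0.334 (sgBap1) with vehicle, and 0.407, 0.452 and 0.377 against 0.223, 0.307 and 0.279 after CCl4. The sgBap1-CCl4 and sgBap1-Veh livers overlapped, and within each treatment the genotypes did not. It was lower in sgBap1 livers by a mean of 0.75 on the log2 scale (exact p = 0.0167, adjusted p = 0.0333). This ratio holds the Bap1 counts already compared above, so its call is no separate support for the fall of Bap1. With CCl4 the mean difference was -0.35 (exact p = 0.03, adjusted p = 0.05), which did not fall under the threshold, and it was -0.40 (adjusted p = 0.0333 by the same exact test) without the liver with fat cell genes. The Bap1 ratio between genotypes and the Ogt to Oga and Asxl2 to Asxl1 ratios with CCl4 kept their directions without any 1 liver. Their calls were lost without any 1 vehicle liver, sgBap1-CCl4 replicate 1 or sgBap1-CCl4 replicate 3 (adjusted p = 0.0556 by the exact test without either of these CCl4 livers). Fewer arrangements of the labels are possible in such fits. The smallest possible exact p then rises for CCl4 but stays at 0.0167 between genotypes. The Mbd6 to Mbd5 ratio was 3.49 to 5.06 over all livers and passed the test for neither factor (exact p = 0.467 for the guide and 0.17 for CCl4).

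**Figure D4:**
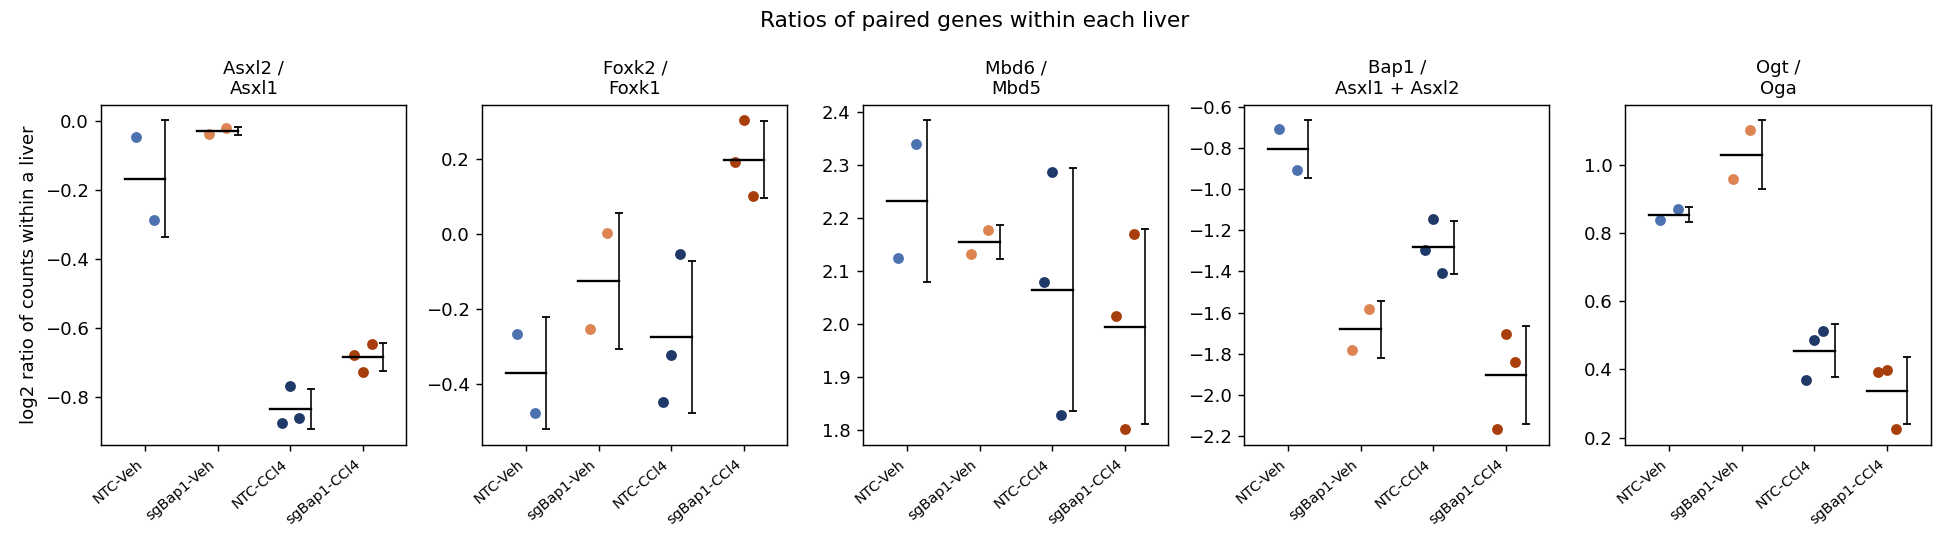
Log2 ratio of the counts of paired genes within each liver (vertical axes, a different range for each ratio) by group, with means (horizontal lines) and SDs (bars). Foxk2 over Foxk1 is higher in sgBap1 than in NTC livers of the same treatment, Asxl2 over Asxl1 and Ogt over Oga are lower in all CCl4 livers, and Mbd6 over Mbd5 overlaps throughout.

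Levels can be compared between genes only per length, here as CPM per kb of the longest coding transcript. In NTC-Veh livers Ogt was highest with 27.2 ± 2.31 CPM per kb (SD, n = 2), followed by Mbd6 (10.3 ± 0.713), Bap1 (10.05 ± 0.00613), Kdm1b (6.68 ± 0.562) and Hcfc1 (6.52 ± 0.834). Foxk2 (4.93 ± 0.356), Asxl1 (4.63 ± 0.712), Foxk1 (4.31 ± 0.135), Asxl2 (2.40 ± 0.0871) and Mbd5 (1.10 ± 0.0408) came after them. The ranges of the livers overlapped between Mbd6 and Bap1, between Kdm1b and Hcfc1, and from Foxk2 over Asxl1 to Foxk1, so these neighbours cannot be ordered. Ogt was the highest and Mbd5 the lowest in all 4 groups. Bap1 was 3rd in NTC-Veh and 6th in sgBap1-Veh livers with 5.35 ± 0.390 CPM per kb (SD, n = 2), where it overlapped Foxk2, Hcfc1 and Kdm1b, so that its place there cannot be told from 3rd. After CCl4 it was 2nd in NTC livers with 8.78 ± 0.291 (SD, n = 3), overlapping Hcfc1 and Mbd6, and 6th in sgBap1 livers with 5.58 ± 0.703 (SD, n = 3), overlapping Foxk2 and Asxl1. With all exons of a gene joined as its length, an alternative chosen after seeing the data, Bap1 was 7th in sgBap1-Veh and 4th in NTC-CCl4 livers.

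**Figure D5:**
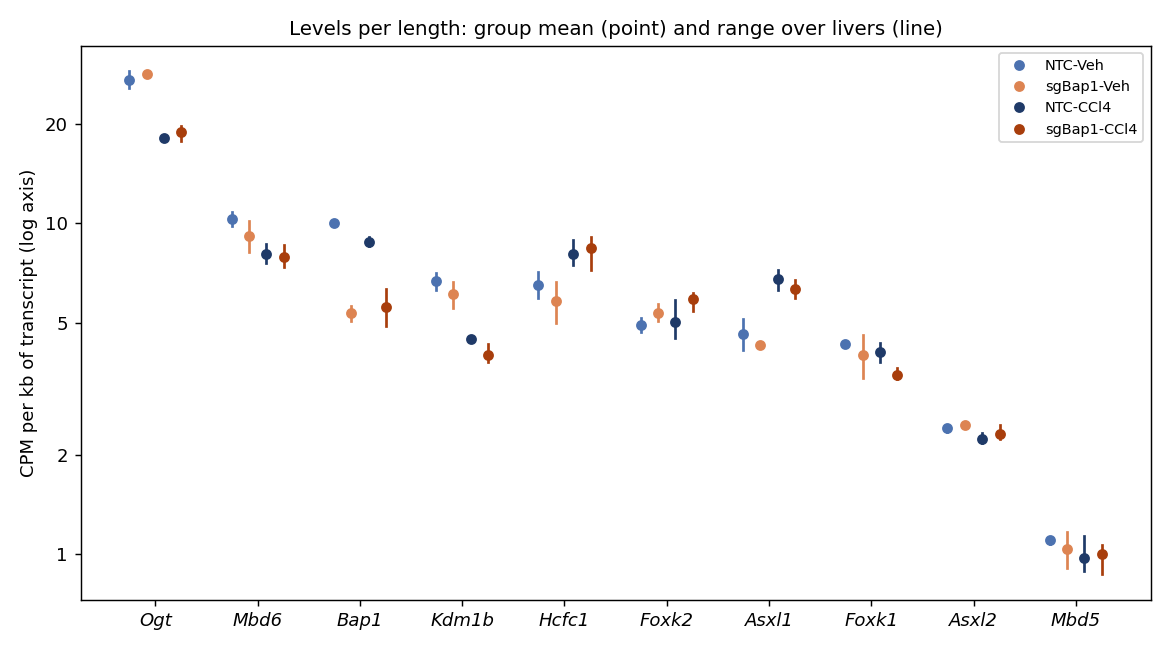
CPM per kb of the longest coding transcript (log axis) of the 10 genes, ordered by their level in NTC-Veh livers, as group means (points) and ranges over livers (lines). Ogt lies at 18.2 to 28.2 CPM per kb and Mbd5 at 0.973 to 1.10, while Bap1 drops from 10.05 and 8.78 in NTC to 5.35 and 5.58 in sgBap1 livers.

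A further 20 genes of the pathway were listed, of which 19 passed the filter. The third ASXL gene, Asxl3, did not, with 17 counts in sgBap1-CCl4 replicate 2, the liver with fat cell genes, as its highest value. None of the 19 was called between genotypes with vehicle, with CCl4 or in the average, where their smallest adjusted p was 0.426 and their median log2 fold change 0.003. With CCl4, 5 were called higher and 4 lower in NTC livers, and 6 higher and 3 lower in sgBap1 livers, beside 53.9% and 57% of all genes. None had a called interaction (smallest adjusted p = 0.406), so a call in one genotype alone does not show that the genotypes differ.

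Among the writers of H2A ubiquitin in PRC1, the ligase gene Ring1 fell with CCl4, from 19.7 and 20.5 CPM to 12.1, 13.8 and 11.2 CPM in NTC livers, by 0.70 on the log2 scale (adjusted p = 0.000279), and by 0.61 in sgBap1 livers (adjusted p = 0.000708). Its paralog Rnf2 was at 0.28 in NTC (adjusted p = 0.0501) and 0.29 in sgBap1 livers (adjusted p = 0.0417). The latter was at 0.17 (adjusted p = 0.296) without sgBap1-Veh replicate 1, and its call was also lost without any 1 sgBap1-CCl4 liver, either NTC-Veh liver or NTC-CCl4 replicate 3. The transcription factor Yy1, which recruits BAP1 through HCF-1, fell by 0.49 in NTC (adjusted p = 0.000423) and 0.41 in sgBap1 livers (adjusted p = 0.00122). The HCF-1 partners moved in opposite directions. Thap11 fell by 0.49 and 0.35 (adjusted p = 0.00318 and 0.0181), and Zfp143 rose by 0.67 and 0.80 (adjusted p = 0.000875 and 0.000283). In sgBap1 livers the Thap11 call was lost without sgBap1-Veh replicate 1 (-0.23, adjusted p = 0.184) or sgBap1-CCl4 replicate 1. Under scaling by library size alone none of these falls was called. Ring1 was then at -0.23 in NTC (adjusted p = 0.146) and -0.12 in sgBap1 livers (adjusted p = 0.431), Yy1 at -0.01 and 0.08, and Thap11 at -0.02 and 0.13.

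Kdm1a, the paralog of Kdm1b, rose where Kdm1b fell, by 0.41 in NTC (adjusted p = 0.00295) and 0.48 in sgBap1 livers (adjusted p = 0.0012). Of the other deubiquitinases in the family of BAP1, Uchl5, a partner of the proteasome and of INO80, rose by 0.36 and 0.47 (adjusted p = 0.0105 and 0.00249), and Uchl3 by 0.31 in NTC livers (adjusted p = 0.0296). In NTC livers the Uchl5 call was lost without either NTC-Veh liver (adjusted p up to 0.0566), and that of Uchl3 without either NTC-Veh liver, NTC-CCl4 replicate 2 or NTC-CCl4 replicate 3 (adjusted p up to 0.16). Uchl1 was at 0 to 2 counts in the vehicle livers, under the floor of 3, and at 12 to 41 counts in the CCl4 livers. Ube2o, which ubiquitinates BAP1, rose in sgBap1 livers by 0.45 (adjusted p = 0.0209), a call that was lost without sgBap1-Veh replicate 2 (0.33, adjusted p = 0.16), sgBap1-CCl4 replicate 1 or sgBap1-CCl4 replicate 2. Usp21, another H2A deubiquitinase, was at -0.23 in NTC livers (adjusted p = 0.0418) and turned to 0.24 under library size scaling, and its call was lost without any 1 of the NTC or sgBap1-CCl4 livers, with adjusted p up to 0.242. Usp16, Mysm1 and Usp3, which also act on H2A, and Oga, Ino80, Hcfc2, Bmi1 and Pcgf1 were not called in either genotype.

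Genes with profiles among those most like that of Bap1 over the 10 livers were Gstm5, Thnsl1, Man2a2 and Bbof1. Likeness is the root mean square difference between log2 CPM profiles, each centred on its mean, and was 0.171, 0.173, 0.195 and 0.197 for these 4, against a median of 0.56 over the 17014 other genes and an SD of 0.397 for the profile of Bap1 itself. It is a description, since Bap1 and these genes share the libraries. A gene picked for likeness to Bap1 is lower in sgBap1 livers by that choice, so a call among them is no independent result. Bbof1 was scarce, with group means of 0.293 to 0.501 CPM. Man2a2, an enzyme that trims N-glycans, was the only one of these 4 called, at -0.44 in the average (adjusted p = 0.0255) and -0.58 with vehicle (adjusted p = 0.0407). The other complex members ranked from 574th (Foxk1) to 7047th (Foxk2) by this measure, so their profiles were not among those nearest to Bap1.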

How the data were processed

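Bulk RNA-seq covered 10 mouse livers, 2 in each vehicle group and 3 in each CCl4 group. The authors made stranded polyA libraries, read pairs of 50 bases, aligned them with STAR 2.7.6a to GRCm38 and quantified genes with Salmon 1.4.0 (versions as in the submitters' processing notes) on GENCODE vM25. The deposited table gives expected counts, Salmon's estimated counts, for each gene symbol with no normalization, of which 9.22% are not whole. All 10 columns were matched to samples by library name. They were rounded and tested with edgeR 4.0.16 in R 4.3.3 (filterByExpr by the 4 groups, TMM, glmQLFit with robust = TRUE and 1 model of the 4 group means). Comparisons were tested two-sided, with Benjamini-Hochberg adjustment over 17015 genes and a threshold of 0.05. Intervals are the log2 fold change ± SE times the t quantile at the test's own degrees of freedom, and cover the spread between these livers. The labels give replicates by number only, and the paper counts liver samples per group. The p-values measure the spread between these samples, which includes any technical spread. Profiles for likeness used log2 CPM with a prior count of 2.

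The members, the list of 20 further pathway genes, the marker lists and the rule for named genes (all members, pathway genes that passed or up to 8 others, and the 5 genes nearest to Bap1) were chosen with earlier results of these data known. One gene that the rule names is not reported here. Positions, lengths and overlaps come from GENCODE vM21 and promoter windows from RefSeq (GRCm38.p6), since vM25 was not used here. Alternatives were DESeq2 size factors, library size alone, no filter beyond 1 count, DESeq2's Wald test (DESeq2 1.42.0), the quasi-likelihood method of edgeR 3, the replicate number as a block, only the 2 groups compared, each liver left out in turn and, for ratios, a pseudocount of 0.5. A direction was counted as turned only where one of the 2 values was called. The mean chi-square per gene between replicates was 15.5 to 90.6, against about 1 for counting error, so each liver was kept as a replicate. The scripts were tested on simulated counts. No batch is named in the sources used here. The spatial and human data of the study were not analysed here.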

Additional observations from a re-analysis of the deposited data

How the results depend on the processing

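With 2 or 3 livers a group, the size of the Bap1 change was steadier than its call. Its log2 fold change was -0.93 to -0.90 with vehicle and -0.66 to -0.63 with CCl4 over the alternatives other than leaving out a liver, with adjusted p of 2.89e-07 to 0.0744 and 5.73e-06 to 0.0766, both lowest with DESeq2. The vehicle call was lost with library size alone (-0.905) and the replicate block (-0.914), and the CCl4 call with these (-0.633 and -0.658) and with only the 2 groups compared (-0.654), so that 0 members were then called. Leaving out a liver gave -0.987 to -0.842 and -0.752 to -0.569, with 0 or 1 member called. The averaged call stood throughout.

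The number of all genes called moved more. With vehicle (69 genes) it was 32 with library size alone, 553 with DESeq2's test, 1 with the replicate block, 27 with only the 2 groups and 0 to 150 without a liver. With CCl4 (56 genes) it was 94 with no filter, 481 with DESeq2, 24 with the replicate block, 28 with only the 2 groups and 1 to 71 without a liver. In the average (70 genes) it was 43 with library size, 108 with no filter, 682 with DESeq2, 9 with the replicate block and 4 to 69 without a liver. For the interaction (0 genes) it was 2, 34 and 408 with library size, no filter and DESeq2, and 0 to 7 without a liver. The causes were not tested.

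The ratio tests lost their calls without any 1 vehicle liver and without some sgBap1-CCl4 livers. For CCl4, leaving out a liver raises the smallest possible p, so a lost call there does not by itself show a smaller difference. Between genotypes the smallest possible p stays at 0.0167. The exact p of Foxk2 over Foxk1 (guide) rose from 0.0167 to 0.05 without sgBap1-CCl4 replicate 1 or replicate 2. Without sgBap1-CCl4 replicate 1 or replicate 3, the exact p of the Bap1 ratio between genotypes stayed 0.0167 and its adjusted p was 0.0556. What else bore on these calls was not tested. The differences ran from 0.084 to 0.204 (Asxl2 over Asxl1, guide), -0.721 to -0.601 (the same, CCl4), 0.296 to 0.423 (Foxk2 over Foxk1, guide), -0.797 to -0.681 (Bap1 over Asxl1 plus Asxl2, guide), -0.399 to -0.283 (the same, CCl4) and -0.581 to -0.51 (Ogt over Oga, CCl4).

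Library size alone turned CCl4 changes in NTC livers to 0.363 (Asxl2), 0.397 (Foxk1), 0.115 (Mbd6), 0.43 (Hcfc2), 0.289 (Oga), 0.414 (Usp16), 0.239 (Usp21) and 0.339 (Usp3). In sgBap1 livers it gave 0.389 (Asxl2), 0.075 (Yy1), 0.374 (Ino80), 0.131 (Thap11), 0.42 (Hcfc2), 0.461 (Usp16), 0.364 (Usp21) and 0.3 (Usp3), since it moves all genes together. Of 2949 recomputed changes of single genes, 2856 kept their direction and side of the threshold, 56 lost a call and 21 gained one. Same-numbered livers correlated at -0.149 to 0.102, above 0.1 in 2 of 13 pairs. In a group of 2 livers the deviations from the group mean mirror each other, so these pairs are not independent. Whether livers with the same number were handled together was not tested. Under the replicate block Mbd6 in NTC livers also lost its call (-0.347, adjusted p = 0.0588).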
